A study of Mus musculus with 5 samples.

Results

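Cycling T cells are T cells caught while they copy their genome or divide. They were taken here as cells in which transcripts of the CD3 chains met those of Mki67 and Top2a. A cell passed with at least 2 unique molecular identifiers (UMIs, single counted transcripts) of Cd3e, Cd3d and Cd3g together, at most 1 of Cd79a, at most 5 of C1qa, C1qb and C1qc together, and at least 2 of Mki67 and Top2a together. The rule found 376 cells among 8603 gated T cells and 21531 cells in all. The cells were thus chosen by these UMI counts, and the levels of Mki67, Top2a and other cell cycle genes in them are given as a description.

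The study sorted live CD45+ cells, that is leukocytes, from 3 mice and from the tumour, the draining lymph node and a non-draining lymph node of each. One mouse had received nivolumab_mIgG1_D265A, one nivolumab_mIgG1 and one the isotype control MOPC21. Nivolumab is an antibody to the inhibitory receptor PD-1, and D265A names an exchange in the Fc part of the antibody. The 9 samples were told apart by hashtag antibodies and run as 1 pool. No source used here says which hashtag marked which mouse and site, so tissues and treatments were not compared and the samples are called populations 1 to 9 by hashtag number. The labels give no strain, age or tumour model.

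A T cell that has met its antigen leaves a resting state and passes through S phase, in which DNA is copied, and G2 phase before mitosis. E2F factors drive genes of DNA replication early in this course, and the DREAM and MuvB complexes with B-MYB and FOXM1 control genes of mitosis later. Ki-67, the product of Mki67, coats mitotic chromosomes, topoisomerase II alpha, the product of Top2a, untangles replicated DNA, and survivin, the product of Birc5, belongs to the complex that guides chromosomes to the spindle. In tumours, dividing cells are found among both effector CD8 T cells and regulatory T cells (Tregs).

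Populations 1, 4 and 7, named by the rule, held 93, 57 and 46 cycling T cells. Their comparison cells passed the same gate without a UMI of Mki67 or Top2a and numbered 661, 459 and 185. Populations 2, 3, 5, 6, 8 and 9 held 33, 22, 27, 24, 42 and 28 cycling T cells, and 4 had no clear hashtag. Each population is 1 sample and allows no test. Intervals are exact at 95% and cover counting error only. Levels are UMIs summed over a class of cells per 1000000 UMIs (CPM).

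In populations 1, 4 and 7 the cycling cells made up 10.4% (8.48 to 12.6), 9.42% (7.21 to 12) and 17.0% (12.7 to 22) of T cells. In populations 2, 3, 5, 6, 8 and 9 the shares were 3.27%, 1.47%, 3.90%, 1.81%, 4.92% and 2.03%, with intervals that reach no higher than 6.59%. The rule counts raw UMIs, and cycling cells were the deeper ones: their median UMIs were 8380, 9267 and 13266 in populations 1, 4 and 7, against 4985, 4869 and 5499 in comparison cells. T cells with at least 2000 UMIs were thinned to 2000, which left out 80, 55 and 20 T cells of populations 1, 4 and 7. A UMI of either gene then remained in 13.5%, 13.6% and 15.9% of the 814, 550 and 251 thinned cells. In the other populations it remained in 3.80% to 6.17% of thinned cells. B cells, a mixed background with dividing members of its own, carried 2 or more such UMIs in 0.795% to 4.40% of cells of populations 2, 3, 5, 6, 8 and 9, at median depths of 2911 to 3194 UMIs. Populations 1 and 4 had none among 25 and 21 B cells, and population 7 had 5 among 26.

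**Figure D1:**
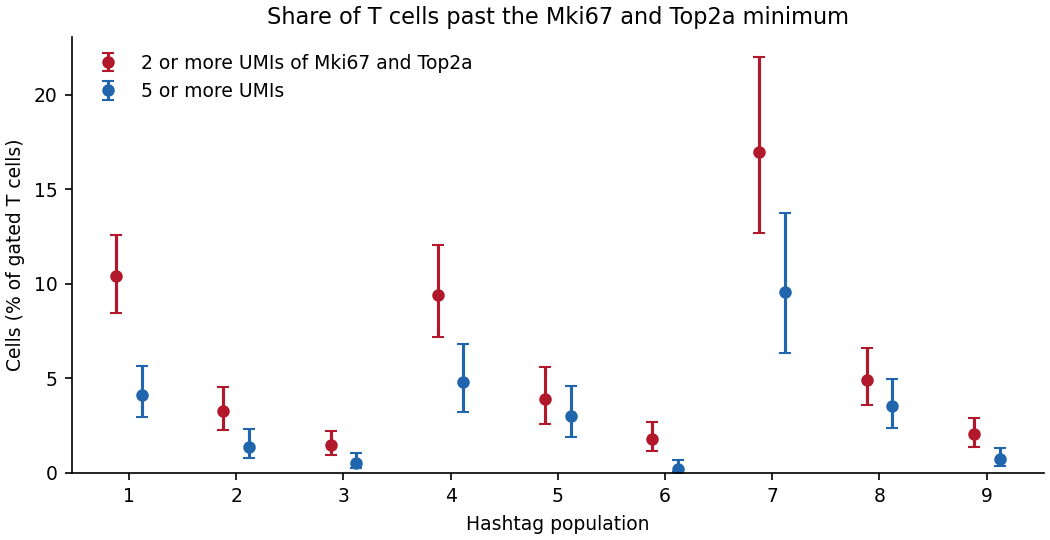
Share of gated T cells (%) in each hashtag population with 2 or more and with 5 or more UMIs of Mki67 and Top2a, with 95% Clopper-Pearson intervals. Populations 1, 4 and 7 stand at 10.4%, 9.42% and 17.0% for 2 or more UMIs, and the other 6 populations between 1.47% and 4.92%.

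The label held for part of the cells. Genes of the S phase and G2/M lists other than Mki67 and Top2a were summed in each cell and set against the 99th percentile of comparison cells of the same population. Of the 196 cycling T cells of populations 1, 4 and 7, 105 stood above it (53.6%, 46.3 to 60.7), namely 45 of 93, 30 of 57 and 30 of 46 cells. The others did not, and for them the name rests on a few UMIs of Mki67 and Top2a. The share above was 8 of 78 cells with exactly 2 UMIs, 9 of 26 with 3 to 4, 21 of 25 with 5 to 9 and 67 of 67 with 10 or more.

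Just inside the threshold, cells with 2 UMIs had 1797 CPM of the S phase list and 819 CPM of the G2/M list over populations 1, 4 and 7. Just outside it, the 269 T cells with 1 UMI had 1047 and 584 CPM, against 928 and 520 CPM in cells with none. The populations differed here. In population 7, cells with 1 UMI had 1612 and 770 CPM, against 1180 and 435 CPM in cells with none, and in population 4, cells with 2 UMIs had 927 CPM of the S phase list, against 837 CPM in cells with none. Of the 78 cells with exactly 2 UMIs, 44 had Top2a alone, 14 Mki67 alone and 20 both genes. Cells with 10 or more UMIs had 6461 CPM of the S phase list and 8141 CPM of the G2/M list. In populations 5 and 8, 24 of 27 and 32 of 42 cycling T cells stood above the percentile of their own comparison cells, against 10 of 24 in population 6.

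Cells that leaned to either list were found in each population. More S phase than G2/M UMIs were counted in 51 of 93, 31 of 57 and 31 of 46 cycling T cells of populations 1, 4 and 7, and more G2/M than S phase UMIs in 37, 23 and 12 cells. Summed over the cycling cells, the S phase list stood at 3915, 4099 and 5895 CPM, against 913, 837 and 1180 CPM in comparison cells. The G2/M list stood at 4906, 5128 and 4466 CPM in cycling cells, against 558, 504 and 435 CPM in comparison cells. Comparison cells thus also held more S phase than G2/M UMIs. A surplus of S phase UMIs therefore does not by itself place a cell in S phase. The core histone and linker histone genes, which are transcribed for chromatin made in S phase, came to 5459, 4193 and 4674 CPM in cycling cells, against 440, 318 and 388 CPM in comparison cells.

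**Figure D2:**
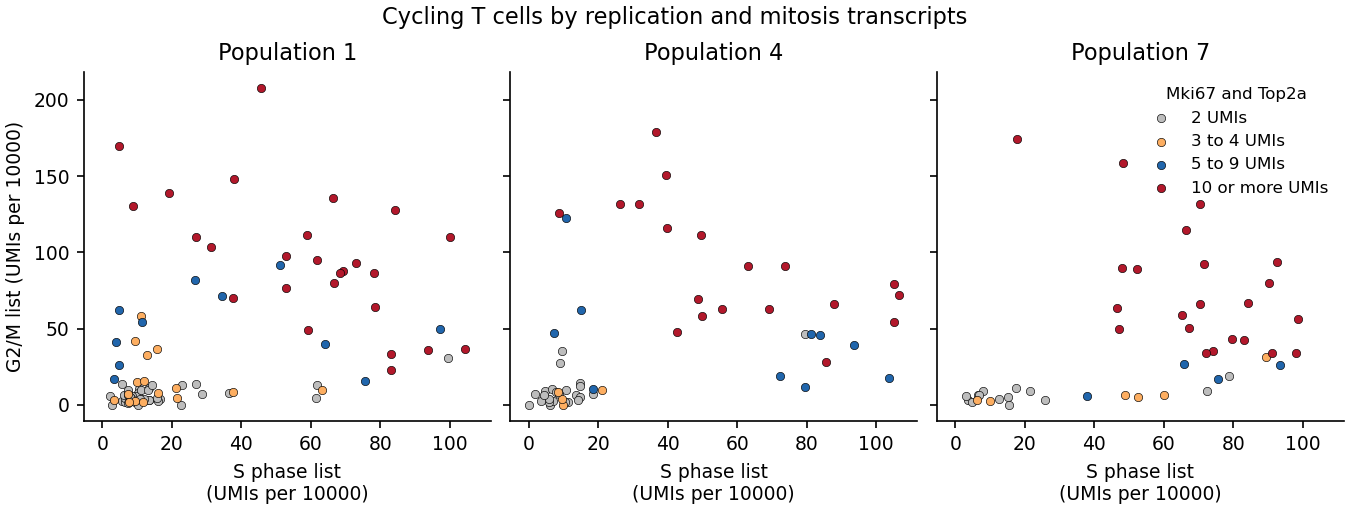
Each point is 1 cycling T cell of population 1, 4 or 7, placed by its UMIs of the S phase list (x) and of the G2/M list (y) per 10000 UMIs and coloured by its UMIs of Mki67 and Top2a. Cells with 2 UMIs lie mostly near the origin, while cells with 10 or more, with a median of 151 per 10000 for both lists together, spread along both axes.

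Most cycling T cells of populations 1, 4 and 7 were CD8 cells, called by at least 2 UMIs of Cd8a and Cd8b1 and none of Cd4. They made up 91.4% (83.8 to 96.2), 77.2% (64.2 to 87.3) and 78.3% (63.6 to 89.0) of cycling cells, against 71.4%, 64.1% and 61.1% of comparison cells. In cells thinned to 2000 UMIs the CD8 shares were 83.7%, 70.2% and 67.4% of cycling cells and 72.2%, 63.1% and 61.4% of comparison cells. Tregs, called by UMIs of Cd4 and of Foxp3, their defining transcription factor, were 11 of 196 cycling cells (5.61%) and 44 of 1305 comparison cells (3.37%). After thinning they were 2 of 195 cycling cells (1.03%, 0.124 to 3.66) and 23 of 1162 comparison cells (1.98%, 1.26 to 2.96), so no direction is read from the Treg share. Other CD4 cells were 0, 1 and 0 of the cycling cells. In populations 2, 3, 5, 6, 8 and 9 together, 70 of 176 cycling cells were CD8 (39.8%), 26 Treg, 35 other CD4 and 45 unassigned. Of 6158 comparison cells there, 2463 were CD8 (40.0%), 107 Treg, 1563 other CD4 and 2025 unassigned. After thinning, Tregs were 0 of 174 cycling cells (up to 2.10%) and 37 of 5748 comparison cells (0.644%).

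Within a lineage, 11 of 64 Tregs (17.2%, 8.90 to 28.7), 165 of 1254 CD8 cells (13.2%, 11.3 to 15.2) and 1 of 65 other CD4 cells (1.54%, 0.0389 to 8.28) of populations 1, 4 and 7 were cycling. In the other 6 populations these were 26 of 151 Tregs (17.2%, 11.6 to 24.2), 70 of 2709 CD8 cells (2.58%, 2.02 to 3.25) and 35 of 1720 other CD4 cells (2.03%, 1.42 to 2.82). These shares are over cells of several samples. Within single populations, 12.6%, 10.9% and 20.5% of CD8 cells were cycling in populations 1, 4 and 7, and 1.15% to 5.96% in the other 6. Next, Mki67 and Top2a were read after thinning, while the lineage stayed as called from all UMIs. Among thinned cells of populations 1, 4 and 7, the shares with a UMI of either gene were then 21.7% of Tregs, 15.1% of CD8 cells and 3.70% of other CD4 cells. In the others they were 15%, 4.71% and 5.20%. The Treg call itself was not corrected for depth in these shares. A Foxp3 UMI is more likely to be seen in a deep cell, and few Tregs were called, so these shares carry wide intervals.

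**Figure D3:**
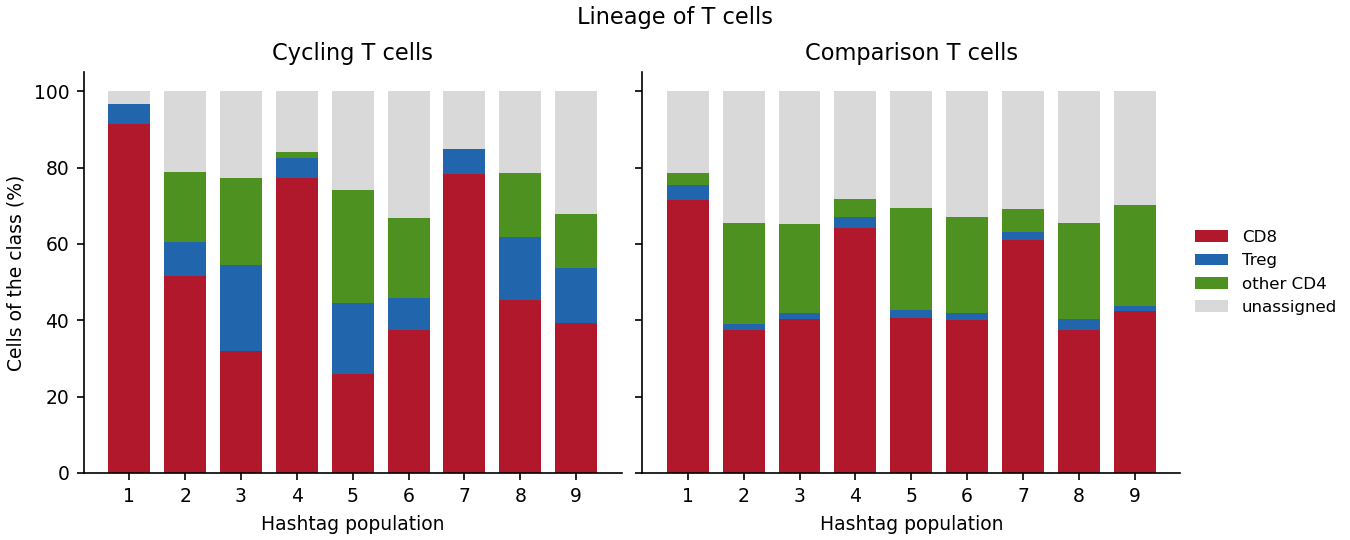
Makeup of cycling T cells (left) and comparison T cells (right) in each hashtag population, as the percentage of cells called CD8, Treg, other CD4 or unassigned. CD8 cells make up 77.2% to 91.4% of cycling cells in populations 1, 4 and 7.

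Of 5166 genes measured in all 3 populations, 165 were at least 2-fold higher in cycling T cells in each of them (3.19%) and 20 at least 2-fold lower (0.387%), each with an interval that left out equality. A gene counted as measured with at least 50 UMIs over both classes in each population, so a gene near 0 in comparison cells was measured only where cycling cells held it. Against comparison cells matched 1 to 1 on total UMIs, 118 of 3398 genes were higher, 112 of them among the 165, and 0 lower. In CD8 cells alone 142 of 4143 genes were higher (3.43%) and 3 lower (0.0724%). With cycling cells limited to those with 5 or more UMIs of Mki67 and Top2a, 207 of 4784 genes were higher (4.33%) and 44 lower (0.92%). Over all gated T cells counted per cell with no scaling, where the median log2 ratio of all genes was 1.00, 1250 genes were higher and 2 lower. Genes named as further examples of a list were chosen after their values had been seen.

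Mki67 stood at 469, 458 and 474 CPM and Top2a at 517, 517 and 546 CPM in cycling cells of populations 1, 4 and 7, and by the rule both were at 0 in comparison cells. Birc5 (chr11:117849251-117855743, plus strand, GENCODE vM21 on GRCm38), which the rule did not use, stood at 303, 303 and 220 CPM in cycling cells, against 6.86, 3.55 and 3.53 CPM in comparison cells. That is 44.2-fold (29.3 to 69.4), 85.4-fold (44.0 to 190) and 62.3-fold (23.9 to 232) higher. Cd3e, the T cell marker, stood at 1376, 1179 and 1001 CPM in cycling cells, against 1501, 1308 and 1297 CPM in comparison cells.

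Genes of G2 phase and mitosis stood far higher in cycling cells. Of the 43 in the list 24 reached the UMI minimum, and these 24 were called higher, with a median log2 ratio of 4.79, beside 0.00 over all measured genes. Only 3 of them would have reached it in comparison cells alone, so the others had to differ and the count is a description. With a minimum of 200 UMIs 3 genes were left, with a median log2 ratio of 1.44, and without cells that held a UMI of another cell type 4, with 1.5. Ccna2 encodes cyclin A2, which drives Cdk1 and Cdk2 through S and G2 phase. It stood at 148, 206 and 173 CPM in cycling cells, against 1.92, 3.16 and 3.53 CPM in comparison cells. Cenpf, a kinetochore protein of late G2 and mitosis, stood at 124, 136 and 145 CPM in cycling cells, against 1.92, 2.37 and 4.41 CPM in comparison cells. No cycling level of either gene overlapped a comparison level, but both were named for their large ratios, and the share of all measured genes without overlap was not counted. Cdca3, a trigger of entry into mitosis, was 27.8-fold (15.8 to 52.7), 395-fold (69.2 to 15764) and 60.3-fold (16.1 to 507) higher, with 1 comparison UMI in population 4 behind the second ratio. Cdk1, the mitotic kinase itself, was 48.9-fold, 36.4-fold and 37.0-fold higher, and Ube2c, which marks mitotic proteins for breakdown, 21.2-fold, 23-fold and 28.9-fold.

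Promoters of the mitosis genes often hold a CHR (cell cycle genes homology region), the element that DREAM and MuvB complexes bind, and CCAAT boxes, which NF-Y binds. Below are 130 bases from RefSeq (GRCm38.p6), from 100 before to 30 after the start site and 5′ to 3′ on the strand of the gene, for both genes of the rule and for Cenpf. Capitals mark a CHR, read as TTTGAA and also as TTCGAA, the CCAAT box, and an E2F site. The E2F site was read as TTCCCGC in its usual form, as TTGGCGC in another form, as TTCGCGC in a further form and as TTGCCGC in the last. Both strands were searched, an E2F match can share letters with a CCAAT match, and a palindrome counts on both strands. Mki67 lies at chr7:135716350-135716479 (minus strand), Top2a at chr11:99024160-99024289 (minus) and Cenpf at chr1:189688057-189688186 (minus).
Mki67: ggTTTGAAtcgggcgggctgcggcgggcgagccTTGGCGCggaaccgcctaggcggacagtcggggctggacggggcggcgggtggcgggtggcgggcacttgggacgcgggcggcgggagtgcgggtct
Top2a: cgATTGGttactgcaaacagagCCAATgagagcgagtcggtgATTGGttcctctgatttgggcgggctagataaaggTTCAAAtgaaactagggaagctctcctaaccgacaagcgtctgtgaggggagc
Cenpf: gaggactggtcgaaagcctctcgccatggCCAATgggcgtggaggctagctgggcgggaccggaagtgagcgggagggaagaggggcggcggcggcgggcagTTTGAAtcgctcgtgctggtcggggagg
Over the 300 bases from 250 before to 50 after the start, a CHR match was found in 15 of 21 promoters (71.4%) and CCAAT in 17 (81.0%) for the higher mitosis genes with Mki67 and Top2a, and an E2F match in 5 (23.8%). Among the 4034 measured genes with a promoter in the table these shares were 14.2%, 38.4% and 18.5%, and among all 27025 promoters 19.4%, 37.9% and 9.69%. The promoters printed all hold matches, while that of Birc5 held no match of any kind. In the whole G2/M list, called or not, 29 of 36 promoters held a CHR match (80.6%) and 28 CCAAT (77.8%). An E2F match was found in 7 (19.4%). These shares therefore describe the list rather than the called genes. The letters alone show no binding in these cells.

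Replication genes were higher as well. Of 30 measured genes among 40 in the S phase list, 27 were higher and none lower, with a median log2 ratio of 2.45, and 7 of the 30 would have reached the minimum in comparison cells alone. With a minimum of 200 UMIs 6 were left, with a median of 1.58, and without cells that held a UMI of another cell type 9, also with 1.58. Clspn encodes claspin, which links stalled replication forks to the checkpoint kinase Chk1. It stood at 97.1, 133 and 130 CPM in cycling cells, against 2.20, 1.97 and 7.05 CPM in comparison cells. Rrm2, the regulated subunit of ribonucleotide reductase, which makes deoxyribonucleotides, stood at 259, 313 and 346 CPM in cycling cells, against 7.69, 5.92 and 11.5 CPM in comparison cells. Both were lowest in population 1 among cycling cells. Cycling and comparison levels did not overlap, but these genes too were named for their large ratios. The share of all measured genes without overlap was not counted, so nothing is read from this.

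Tk1, thymidine kinase of the salvage pathway, was 26.9-fold, 23.9-fold and 14.6-fold higher in cycling cells. Uhrf1, which brings the methyltransferase Dnmt1 to newly copied DNA, was 8.37-fold (5.38 to 13.3), 20.4-fold (11.1 to 40.3) and 17.5-fold (9.18 to 37.6) higher, at 71.2, 104 and 155 CPM in cycling cells and 8.51, 5.13 and 8.82 CPM in comparison cells. Mcm5, part of the replicative helicase, was 7.68-fold, 8.15-fold and 5.29-fold higher. Pcna, the sliding clamp, stood at 187, 191 and 275 CPM in cycling cells, against 58.8, 62.7 and 80.2 CPM in comparison cells, and was 3.18-fold, 3.04-fold and 3.43-fold higher.

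The promoters of Clspn at chr4:126556880-126557009 (plus strand) and Uhrf1 at chr17:56303237-56303366 (plus), printed with the same marks, show the other type, with CCAAT boxes and an E2F match and no CHR match in the window.
Clspn: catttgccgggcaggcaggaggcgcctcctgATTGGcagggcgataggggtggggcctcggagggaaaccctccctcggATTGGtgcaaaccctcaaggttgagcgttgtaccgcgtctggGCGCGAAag
Uhrf1: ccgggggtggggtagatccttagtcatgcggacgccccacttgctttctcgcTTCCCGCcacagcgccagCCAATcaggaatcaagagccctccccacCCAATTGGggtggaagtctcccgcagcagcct
Of 25 promoters of the higher S phase genes, 15 (60%) held an E2F match, 15 (60%) CCAAT and 4 (16%) a CHR match. In the whole S phase list, called or not, 20 of 33 promoters held an E2F match (60.6%), 20 CCAAT (60.6%) and 5 a CHR match (15.2%). The promoters of Tk1 and Tyms held no match of any kind.

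Genes outside the lists with the highest ratios were histone genes and 2 others. Hist1h1b, a linker histone, stood at 607, 461 and 671 CPM in cycling cells, against 10.4, 10.7 and 11.5 CPM in comparison cells. Hist1h2ae, an H2A histone, stood at 899, 647 and 695 CPM in cycling cells, against 17.6, 12.2 and 23.8 CPM in comparison cells. The further histone genes Hist1h3b, Hist1h2an, Hist1h2ab, Hist1h2bj, Hist1h1d and Hist1h3c had median log2 ratios of 5.71, 5.02, 4.78, 4.66, 4.20 and 4.18. Histone genes are near-copies of each other, and how the counting divided shared reads is not given, so values of single genes are uncertain. Casc5, also called Knl1, a scaffold of the kinetochore, was 43.2-fold (21.0 to 103), 64.1-fold (23.8 to 243) and 72.4-fold (19.5 to 607) higher, with 2 comparison UMIs in population 7. 2810417H13Rik, also called Pclaf, which binds PCNA, was 55.7-fold, 102-fold and 40.3-fold higher.

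Chromatin and tubulin genes, which resting cells also transcribe, were higher in 24 of 26 cases, with a median log2 ratio of 1.61. Stmn1, stathmin, which destabilises microtubules, stood at 332, 295 and 360 CPM in cycling cells, against 9.06, 8.29 and 20.3 CPM in comparison cells. Tuba1b, an alpha tubulin, stood at 1607, 1381 and 1745 CPM in cycling cells, against 156, 163 and 227 CPM in comparison cells. Asf1b, a histone chaperone, was 16.7-fold, 20.2-fold and 26.7-fold higher and H2afx, the histone variant phosphorylated at DNA breaks, 6.98-fold, 8.31-fold and 3.90-fold. Of 19 promoters of these genes, 16 (84.2%) held CCAAT, 8 (42.1%) a CHR match and 5 (26.3%) an E2F match.

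Nucleotide and one-carbon genes were higher in 3 of 17 measured cases, with a median log2 ratio of 0.69. Phgdh and Psat1 catalyse the first steps of serine synthesis, and serine feeds the one-carbon units of nucleotides. Phgdh stood at 118, 179 and 156 CPM in cycling cells, against 56.8, 39.5 and 57.3 CPM in comparison cells. Psat1 was 2.33-fold (1.62 to 3.33), 3.12-fold (2.08 to 4.64) and 4.26-fold (2.51 to 7.53) higher. Dctpp1, a pyrophosphatase that breaks down dCTP, was 2.61-fold, 3.32-fold and 3.24-fold higher. These 3 genes were also called in CD8 cells alone and with 5 or more UMIs, but not against depth-matched cells, where 0 of 10 measured genes were called. There the ratios were 2.04, 4.25 and 1.94 for Phgdh, 1.43, 1.89 and 3.74 for Psat1 and 2.00, 2.09 and 2.76 for Dctpp1.

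Of 8 measured DNA damage genes among 22, 1 was higher: Topbp1, which activates the kinase ATR at replication forks, at 75.5, 101 and 139 CPM in cycling cells, against 32.4, 28.4 and 35.3 CPM in comparison cells. With a minimum of 10 UMIs, which all 22 reached, 13 were higher and none lower, with a median log2 ratio of 2.26, beside 357 of 9178 higher genes (3.89%) over all. Those near 0 in comparison cells reached it only through cycling cells, so this count too is a description. Brca1, which acts in homologous repair of DNA breaks, stood at 42.1, 59.7 and 82.2 CPM in cycling cells, against 2.20, 4.34 and 2.64 CPM in comparison cells. Gadd45a, a stress gene induced by DNA damage, had ratios of 0.47, 1.26 and 0.34 on 5, 6 and 3 UMIs in cycling cells.

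The transcription factors that drive the cycle lay below the minimum of 50 UMIs. With a minimum of 10, 14 of 33 cell cycle regulators were higher and none lower, with a median log2 ratio of 0.97. Over all genes at this minimum, 357 of 9178 were higher (3.89%). Regulators near 0 in comparison cells reached it only through cycling cells and had to differ, so the count is a description. Mybl2, which encodes B-MYB, stood at 24.8, 33.2 and 59.5 CPM in cycling cells, against 0, 0.789 and 0 CPM in comparison cells, that is 0, 2 and 0 UMIs. Foxm1 stood at 23.7, 28.2 and 32.6 CPM in cycling cells, against 0.549, 1.18 and 0.882 CPM in comparison cells. E2f1, an activating E2F, stood at 28.1, 9.95 and 76.6 CPM in cycling cells, against 2.47, 2.37 and 9.70 CPM in comparison cells. It was lowest in population 4, on 6 UMIs in each class. E2f7 and E2f8, repressing E2Fs, had 24, 19 and 26 and 25, 20 and 31 UMIs in cycling cells, against 1, 0 and 1 and 0, 3 and 2 in comparison cells. Ccne1, cyclin E1 of the G1 to S transition, was 5.81-fold (3.32 to 10.3), 4.03-fold (2.21 to 7.36) and 10.6-fold (4.12 to 34.8) higher.

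The 17 regulators that reached 50 UMIs, 12 of them in comparison cells alone, had no call in either direction and a median log2 ratio of 0.34. Cdk4, the kinase of G1 phase, was 1.87-fold, 1.73-fold and 1.74-fold higher by its CPM, and Cdkn1b, which encodes the inhibitor p27, had ratios of 0.81, 0.73 and 0.49. Btg1, an antiproliferative factor of resting cells, stood at 641, 546 and 430 CPM in cycling cells, against 1059, 1139 and 912 CPM in comparison cells. With 5 or more UMIs of Mki67 and Top2a, Cdk4, Rbl1 and Fzr1 were called higher and Btg1 lower. Glycolysis genes, 72 nuclear respiratory chain genes, 12 mitochondrial genes and 80 ribosomal protein genes had no call, with median log2 ratios of 0.07, 0.21, 0.07 and -0.12. The summed glycolysis list had ratios of 1.11, 1.07 and 1.27 in populations 1, 4 and 7 and of 1.68 to 3.36 in the other 6. Ribosomal protein genes had ratios of 0.86, 0.90 and 0.99, and of 0.58 to 0.85 in the other 6.

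**Figure D4:**
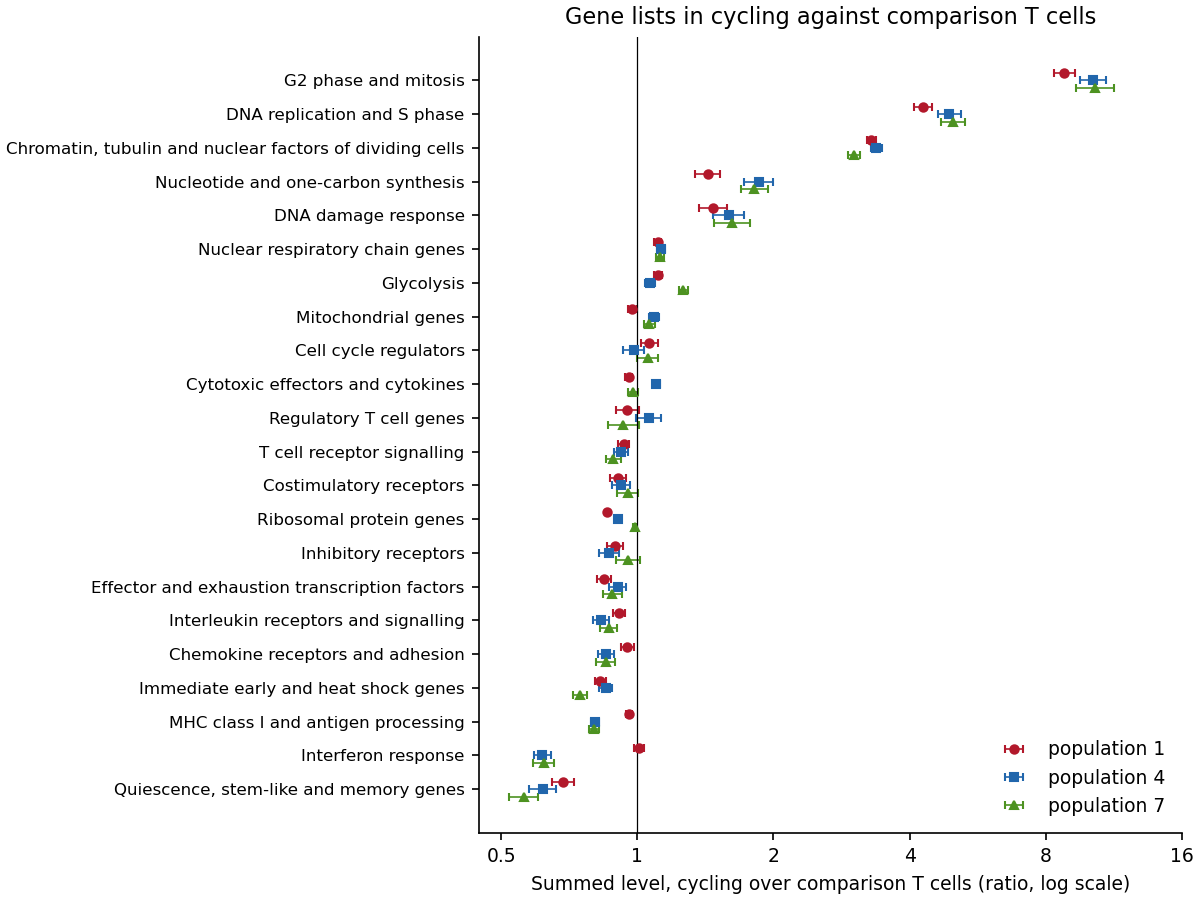
Ratio of the summed level (CPM) of each gene list in cycling over comparison T cells of populations 1, 4 and 7, on a log scale with 95% intervals. G2/M genes stand at 8.79 to 10.3, S phase genes at 4.29 to 4.99 and quiescence genes at 0.56 to 0.68. Effector and receptor lists lie near 1 when all cycling cells are summed.

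Summed over all cycling cells, effector genes of CD8 T cells stood near their levels in comparison cells. The 17 measured cytotoxic and cytokine genes had a median log2 ratio of 0.13 with 1 call, and their sum stood at ratios of 0.96, 1.10 and 0.98, or 0.89, 0.94 and 0.90 in CD8 cells alone. The sum differed among cycling cells. It stood at 25779, 20481 and 14361 CPM in cells with 2 UMIs of Mki67 and Top2a. With 5 or more it was 14084.5, 30588.9 and 13903.5 CPM, and in comparison cells 19246, 24763 and 13855 CPM. Cells with more S phase than G2/M UMIs had 22831, 34641 and 13009 CPM, and those with more G2/M UMIs 13323, 20683 and 15024 CPM. In each population the former included cells with only 2 UMIs of Mki67 and Top2a. Comparison cells lean to the S phase list as well, so this split is not one by phase alone. Gzmb, granzyme B, stood at 2614, 3799 and 3157 CPM in cycling cells, against 2315, 3564 and 1798 CPM in comparison cells. Prf1, perforin, had ratios of 0.87, 0.90 and 1.00. The chemokine gene Ccl5 stood at 5254, 3517 and 1697 CPM in cycling cells, against 6341, 6719 and 3247 CPM in comparison cells.

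The called gene was Gzme, which encodes a serine protease of cytotoxic granules (chr14:56117626-56120625, minus strand), at 154, 618 and 108 CPM in cycling cells, against 71.4, 233 and 21.2 CPM in comparison cells. A UMI of it was found in 25 of 196 cycling cells, 1 of which, in population 4, held 30.4% of its UMIs, and near-identical granzyme genes could share its reads. Without that cell, a comparison added after the data had been seen, the ratio in population 4 was 1.42 (1.20 to 1.68) and the call was lost. It was not called in CD8 cells alone, where the ratio in population 4 was 1.53, nor with 5 or more UMIs of Mki67 and Top2a, where population 1 had 0. Xcl1, which encodes a chemokine that attracts cross-presenting dendritic cells, rested on 1 cell in population 4. It stood at 17.3, 947 and 418 CPM in cycling cells, against 173, 291 and 214 CPM in comparison cells. In CD8 cells alone its ratios were 0.57, 18.9 and 2.30. One cycling cell of population 4 held 548 of the 571 UMIs there, and without it Xcl1 stood at 39.7 CPM, a ratio of 0.14 (0.086 to 0.21), below the comparison cells as in population 1.

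Inhibitory receptors, which mark activated and exhausted T cells, had no call among 11 measured genes, with a median log2 ratio of -0.11. Pdcd1, which encodes PD-1 (chr1:94038305-94052553, minus strand), stood at 429, 358 and 326 CPM in cycling cells, against 468, 398 and 362 CPM in comparison cells, ratios of 0.92 (0.82 to 1.02), 0.90 (0.77 to 1.04) and 0.90 (0.76 to 1.06). In CD8 cells alone it stood at 452, 369 and 385 CPM in cycling cells, against 543, 488 and 459 CPM in comparison cells. The summed list had ratios of 0.89, 0.87 and 0.95, and of 0.83, 0.74 and 0.80 in CD8 cells. These ratios join cycling cells that differed. The list stood at 3902, 3769 and 4274 CPM in cells with 2 UMIs of Mki67 and Top2a, above the 3461, 3478 and 2665 CPM of comparison cells. In cells with 5 or more UMIs it stood below them, at 2726, 2488 and 2162 CPM. Lag3 and Havcr2, which encodes Tim-3, had ratios of 0.82 to 0.86 and 1.06 to 1.16. Costimulatory receptors (9 measured), effector and exhaustion transcription factors (16) and T cell receptor signalling genes (20) had no call, with median log2 ratios of -0.13, -0.19 and -0.11.

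In CD8 cells with a Pdcd1 UMI, a comparison added after the data had been seen, 123 of 3720 genes were higher (3.31%) and 2 lower (0.0538%). The 2 were Klf2 and Lyz2. Outside populations 1, 4 and 7, Pdcd1 stood at 17.4 to 45.1 CPM in cycling cells, against 5.61 to 22.6 CPM in comparison cells, each population resting on 3 to 31 UMIs in cycling cells. There the inhibitory list had ratios of 1.61 to 2.70 and the Treg list of 2.86 to 4.13, beside Tregs as 26 of 176 cycling cells, against 107 of 6158 comparison cells, by raw UMIs. In thinned cells the Treg call was lost, at 0 of 174 cycling and 37 of 5748 comparison cells. The part of that makeup in these ratios was not tested.

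Among genes that keep T cells resting or stem-like, 3 of 15 measured were called lower in cycling cells and none higher, with a median log2 ratio of -0.95. Tcf7, which encodes TCF-1, the factor of stem-like T cells (chr11:52252371-52283014, minus strand), stood at 12.9, 14.9 and 5.67 CPM in cycling cells, against 42.0, 64.3 and 54.7 CPM in comparison cells. It was 3.24-fold (1.80 to 6.42), 4.31-fold (2.22 to 9.60) and 9.64-fold (3.58 to 36.5) lower, on 12, 9 and 4 UMIs. Klf2, which keeps T cells quiescent and drives the exit receptor S1pr1 (chr8:72319033-72321656, plus strand), stood at 34.5, 49.7 and 39.7 CPM in cycling cells, against 147, 124 and 205 CPM in comparison cells. Klf3, a repressor of the same family, was 2.91-fold, 3.57-fold and 8.70-fold lower, on 7, 4 and 4 UMIs. No cycling level of these 3 genes reached a comparison level. They were named because they were called, and the share of all measured genes without overlap was not counted.

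With 5 or more UMIs of Mki67 and Top2a the quiescence genes called lower included Tcf7, Klf2, Klf3 and Txnip, a brake on glucose uptake. In CD8 cells alone 10 genes were measured and 0 called, the median log2 ratio was -0.71, and Klf2 stood at 22.4, 48.7 and 48.6 CPM in cycling cells, against 90.9, 90.6 and 143 CPM in comparison cells. Against depth-matched cells 9 were measured and 0 called, with a median of -0.33. There Klf2 had ratios of 0.31, 0.50 and 0.55, and Tcf7 and Klf3 were below the UMI minimum. Per cell with no scaling the list's median was 0.00, where that of all genes was 1.00. The summed list had ratios of 0.68, 0.62 and 0.56, and of 0.31 to 0.65 in the other 6 populations. Socs3, a brake on cytokine signalling, was 3.75-fold, 2.94-fold and 2.14-fold lower, and in CD8 cells alone had ratios of 0.47, 0.43 and 0.90.

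The interferon response list had no call among 20 genes, with a median log2 ratio of -0.58 and summed ratios of 1.01, 0.62 and 0.62. Without population 1, 4 of the 20 were called lower, with a median of -0.66, and without population 4 none was, with a median of -0.33. Over all measured genes 61 of 5170 (1.18%) and 33 of 5192 (0.636%) were called lower in these settings, where only a pair of populations must meet the fold. Ifit1, an interferon-induced RNA sensor, had ratios of 0.87, 0.35 and 0.23. MHC class I and antigen processing genes had summed ratios of 0.96, 0.81 and 0.80, again nearest to 1 in population 1. Interleukin receptor genes (21 measured) had 1 call, Socs3 above, and chemokine receptor and adhesion genes (19), Treg genes (8) and immediate early and heat shock genes (13) had none. Foxp3 was below the UMI minimum, and Cd4 stood at 12.9, 29.8 and 11.3 CPM in cycling cells, against 38.2, 32.0 and 42.3 CPM in comparison cells. Cd8a stood at 1090, 1123 and 812 CPM in cycling cells, against 1125, 1034 and 1049 CPM in comparison cells, and Cd8b1 had ratios of 0.88, 0.92 and 0.93.

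**Figure D5:**
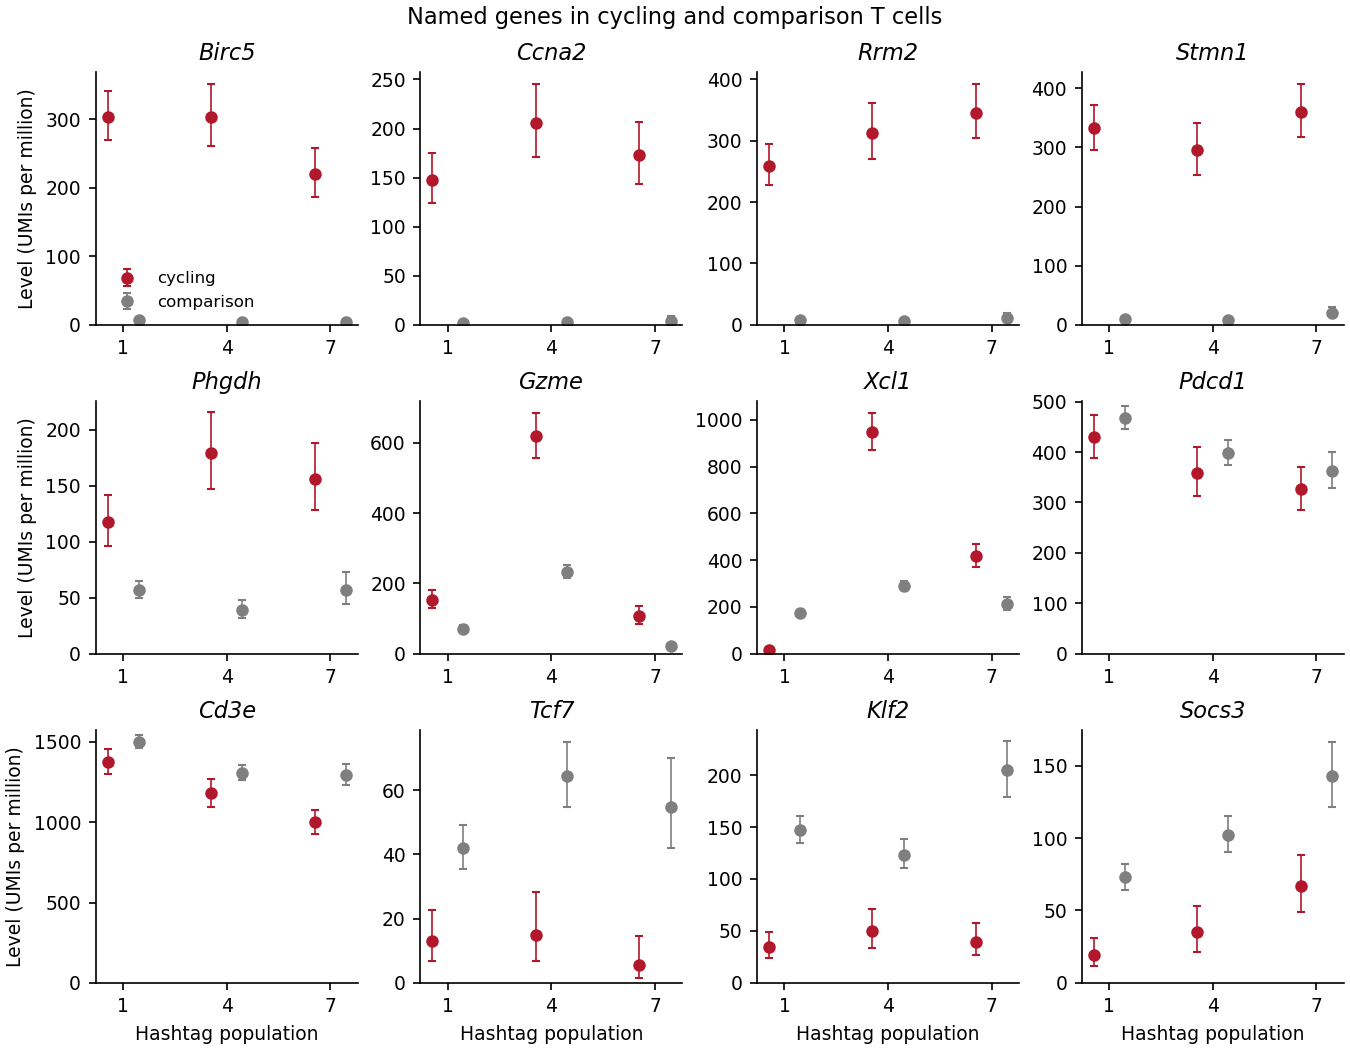
Level (CPM, with 95% Poisson intervals) of 12 named genes in cycling and comparison T cells of populations 1, 4 and 7. Birc5, Ccna2, Rrm2, Stmn1 and Phgdh are higher in cycling cells in all 3 populations, Tcf7, Klf2 and Socs3 lower, Pdcd1 and Cd3e near equal, and Xcl1 is lower in population 1 and higher in populations 4 and 7, with 1 cell holding 548 of its 571 UMIs in cycling cells of population 4.

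Of the 20 lower calls 16 were outside the lists, and those with the largest ratios included genes that myeloid and antigen-presenting cells express. Lyz2, lysozyme of macrophages and monocytes, stood at 30.2, 33.2 and 21.3 CPM in cycling cells, against 133, 300 and 249 CPM in comparison cells. H2-Ab1 and H2-Aa, the chains of MHC class II, were 2.90-fold, 6.13-fold and 11.8-fold and 2.35-fold, 4.20-fold and 7.80-fold lower. Il1b, interleukin 1 beta, was 15.6-fold (5.26 to 76.4), 5.71-fold (2.71 to 14.4) and 44.6-fold (15 to 218) lower, on 3, 7 and 3 UMIs in cycling cells, and Alox5ap, of leukotriene synthesis, 6.74-fold (1.78 to 57.1), 4.76-fold (1.97 to 15) and 41.0-fold (7.11 to 1645) lower, on 2, 5 and 1. Apoe, Tgfbi, Lgmn and Cd14, all genes of macrophages or monocytes, and Slfn5, an interferon-induced gene, had median log2 ratios of -2.72, -2.36, -2.34, -1.89 and -1.84. Against depth-matched cells of populations 1, 4 and 7, Lyz2, then below the UMI minimum, had ratios of 1.01, 0.034 and 0.31. Those of H2-Aa were 1.20, 0.14 and 0.16, and those of H2-Ab1 0.75, 0.095 and 0.089. In population 4 the 57 matched cells held 525 of the 760 Lyz2 UMIs of all comparison cells, so the match there took in cells rich in Lyz2.

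Markers of other cell types moved with these calls. The 6 macrophage markers summed to 106, 119 and 66.6 CPM in cycling cells, against 176, 334 and 284 CPM in comparison cells, with Mrc1 at 0 in cycling cells of populations 1 and 4 and Adgre1 in population 7. The 5 NK cell markers summed to 28.1, 126 and 224 CPM in cycling cells, against 164, 311 and 419 CPM in comparison cells, with Klra8 at 0 in cycling cells of each population. The 5 monocyte markers, which include Ly6c2, a gene that CD8 T cells also express, summed to 3923, 1283 and 1035 CPM in cycling cells, against 4680, 3468 and 1738 CPM in comparison cells, with Chil3 at 0 in cycling cells of populations 1 and 4. Neutrophil, mast cell and erythroid markers came to 0 to 1.66 CPM in cycling cells and 0 to 4.34 CPM in comparison cells. Without cells that held a UMI of Cd79a, C1qa, C1qb, C1qc, Lyz2 or Ms4a1, 32, 20 and 21 cycling cells and 273, 191 and 73 comparison cells were left, and 40 of 2265 measured genes were higher and 2 lower. In CD8 cells alone, the 3 lower genes were Lyz2, H2-Ab1 and Kdm5b, a histone demethylase, at 22.4, 26.4 and 13.9 CPM in cycling cells, against 57.6, 56.7 and 61.4 CPM in comparison cells. The part of these other cells in the lower calls was not tested further.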

How the data were processed

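Single-cell 5′ RNA libraries and a hashtag library were deposited as 1 table of UMI counts per gene and cell, whole numbers with no normalization. The submitters' processing notes name Cell Ranger 8.0.1 and the mm10 build as what the authors used for these counts. Cells under 200 genes or over 20% mitochondrial UMIs were removed (93 of 21624 barcodes; no barcode was repeated), and a cell was given to a hashtag whose count was at least 3 times the next (258 cells had none). Members and all 22 gene lists were chosen with earlier results of these data known. Counts were summed per class and population, and ratios of CPM were given with conditional binomial intervals, shares with Clopper-Pearson and levels with Poisson intervals, at 95%. A fold against 0 used 3 counts.

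Genes were called higher or lower at 2-fold in each of populations 1, 4 and 7 with the interval beyond equality, a count by size and no test. Named genes were the markers, up to 4 called genes of each list with the largest median ratio, list genes called in opposite directions, 10 higher and 10 lower genes in no list, and the lineage genes. Alternatives were matched or thinned depth, other UMI minimums, scalings, CD8 cells, removal of doublets or of cells with markers of other types, and each population left out. Scrublet (scanpy 1.11.5), run on all cells with an expected doublet rate of 8%, called 184 cells doublets (0.855%), 1 of them cycling, and they were kept. With so few calls it cannot show that cycling cells are free of doublets. B cells had at least 2 UMIs of Cd79a and none of Cd3e, Cd3d or Cd3g. Gene positions are from GENCODE vM21 (GRCm38) and promoters from RefSeq (GRCm38.p6). T cell receptor constant genes and gamma-delta cells were not analysed here. The scripts were tested on simulated data and used Python 3.11.15, numpy 2.4.6, scipy 1.17.1, pandas 2.3.3 and matplotlib 3.10.9.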

Additional observations from a re-analysis of the deposited data

Results flagged for a closer look

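Xcl1, the chemokine gene of the cytotoxic and cytokine list, differed in direction between populations. Its ratio of cycling to comparison T cells was 0.0997 (0.0566 to 0.163) in population 1 and 3.25 (2.91 to 3.63) in population 4. The difference between the populations was not tested. One cycling cell of population 4 held 548 of the 571 Xcl1 UMIs, and without it the ratio there was 0.14 (0.086 to 0.21), so that populations 1 and 4 no longer differed in direction.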

How the results depend on the processing

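By the median ratio over the populations, the 43 named genes that were called kept their direction in 507 of 507 values. A median can hide a single population that turned. Against depth-matched cells, H2-Aa had a ratio of 1.20 in population 1. The 43 genes include Mki67 and Top2a, whose direction the rule fixes. A change of UMI minimum or a population left out cannot turn a gene called in all populations. Only measured genes gave a value, namely 32 in CD8 cells, 32 against depth-matched cells and 30 in CD8 cells with a Pdcd1 UMI. Without cells with markers of other types 14 were still measured, and with a minimum of 200 UMIs 12. Without the cycling cell with most Xcl1 UMIs, chosen after seeing the data, the ratio of Xcl1 in population 4 was 0.14. With 1 or more UMIs of Mki67 and Top2a the shares of populations 1 to 9 were 26.1%, 10.5%, 7.74%, 24.1%, 9.52%, 6.80%, 31.7%, 10.8% and 9.35%, and with 5 or more they were 4.14%, 1.39%, 0.534%, 4.79%, 3.03%, 0.227%, 9.59%, 3.51% and 0.725%. Over T cells with at least 2000 UMIs, thinned to 2000, the shares of populations 1, 2, 3, 4, 5, 6 and 9 were 13.5%, 6.07%, 4.23%, 13.6%, 6.17%, 3.80% and 5.11%. Without cells with markers of other types, population 8 stood at 3.36%. Thinned cycling cells of population 1 were 83.7% CD8, and Tregs were 0% in populations 1 and 7, as in populations 2, 3, 5, 6, 8 and 9 (0 of 174 cells together). The higher calls were 1250 per cell with no scaling, which shifts all genes by a median log2 of 1.00, 357 and 40 with minimums of 10 and 200 UMIs, and 40 without cells with markers of other types. The lower calls were 0 against depth-matched cells, 44 with 5 or more UMIs, 3 in CD8 cells, 2 per cell, 38 and 8 with minimums of 10 and 200 UMIs, 2 without cells with markers of other types, 2 in CD8 cells with a Pdcd1 UMI, and 61, 33 and 55 without population 1, 4 and 7, where only a pair of populations must meet the fold. Cell cycle regulators then had higher calls in 0 of 17, 3 of 19 and 3 of 20 genes, and nucleotide genes in 6 of 17, 3 of 17 and 5 of 18. Quiescence genes had lower calls in 4 of 15, 3 of 15 and 6 of 16. Over all measured genes 3.62%, 3.72% and 2.90% were then called higher and 1.18%, 0.636% and 0.814% lower. The causes were not tested. In population 7 the depth match was incomplete, with median UMIs of 13266 in cycling and 10387 in comparison cells. No paired analysis was possible because the populations have no group in the labels and cannot serve as replicates. Each ratio was taken between cells of 1 population.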
